A study of Mus musculus with 24 samples.

Results

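The 7 genes described here act late in red blood cell formation, in the passage from a dividing erythroid precursor to a haemoglobin-filled cell: Epor, Bcl2l1, Hemgn, Trim10, Trim58, Bnip3l and Bpgm. They were taken from a list of 8 named terminal maturation and survival genes, and 1 of the 8 was not analysed here. A protein-protected site (PPS) belonged to a gene when it overlapped the gene body on the same strand in the mm10 mouse genome. By this rule, 213 of the 460777 deposited PPSs fell on the 7 genes, 44 of 138689 at day 0, 80 of 169575 at day 2 and 89 of 152513 at day 4. All 7 genes had an exonic PPS on at least 1 day, among 9550 protein-coding genes that did.

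The data came from protein interaction profile sequencing (PIP-seq) of MEL cells, a mouse erythroleukaemia line that is blocked at an early erythroid stage and resumes maturation when DMSO is added. Cells were uninduced (day 0) or grown for 2 or 4 days with 2% DMSO, with 2 biological replicates per day, and all were crosslinked with formaldehyde. Each replicate was digested with a single-strand-specific RNase (ssRNase, RNaseONE) or a double-strand-specific one (dsRNase, RNase V1), with proteins left in place (footprint) or removed beforehand (structure only), which gave 24 libraries. A PPS is a stretch where footprint reads exceed those of the structure-only library, and its name tells which of the 12 call sets (day, RNase and replicate) it came from. MEL is a transformed line, which limits it as a model of normal maturation.

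Erythropoietin holds erythroid precursors alive through its receptor Epor, which signals through JAK2 and STAT5. A known target of this pathway is Bcl2l1, whose main product Bcl-xL blocks apoptosis at mitochondria. As the cells mature, Bnip3l (also called Nix) marks mitochondria for removal by autophagy, Trim58 is a ubiquitin ligase linked to loss of the nucleus, and Trim10 and the nuclear protein Hemgn (hemogen) are needed for full haemoglobin production or erythroid gene expression. Bpgm makes 2,3-bisphosphoglycerate, which lowers the oxygen affinity of haemoglobin.

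Exonic PPS coverage, the percentage of the exonic nucleotides of a gene that lie in a PPS, was higher at day 4 than at day 0 in 5 of the 7 genes (Trim10, Bcl2l1, Hemgn, Epor and Bnip3l), meaning that both replicates of day 4 lay above both of day 0. The same was seen in 30.8% of all 9550 genes. No member was lower in this sense, against 25.4% of all genes. The median change of the 7 genes, pooled over replicates, was 15.0 percentage points, and that over all genes was 0. It was 2.95 with ssRNase calls only and 8.37 to 23.1 when a replicate was left out. In Trim10, Hemgn, Epor and Bnip3l the rise was larger than in at least 96.9% of genes. Trim58 and Bpgm held PPSs outside ribosome size of 1 replicate or none at each day. With 2 replicates against 2, an exact two-sided permutation test cannot give a p below 0.333, so no p-value is given for these differences and each is described by whether the replicates overlap. The files hold no RNA level, so more RNA and more protein per RNA molecule cannot be told apart. PPSs of 20 to 40 nt, the size of a ribosome footprint, were left out of every coverage value. They made up 10 of 44, 21 of 80 and 14 of 89 member PPSs at days 0, 2 and 4. Over all PPSs of the series their share was 17.15%, 29.54% and 19.98%, so the largest share was left out at day 2. With all lengths kept, the pooled change from day 0 to day 2 was 0.15 points in Bcl2l1 in place of -0.65. In Bnip3l it was -8.81 points in place of -10.2. Sites called in several sets were deposited already joined, so a replicate shares the outline of a site with the other replicate, and the spread between replicates is understated.

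**Figure D1:**
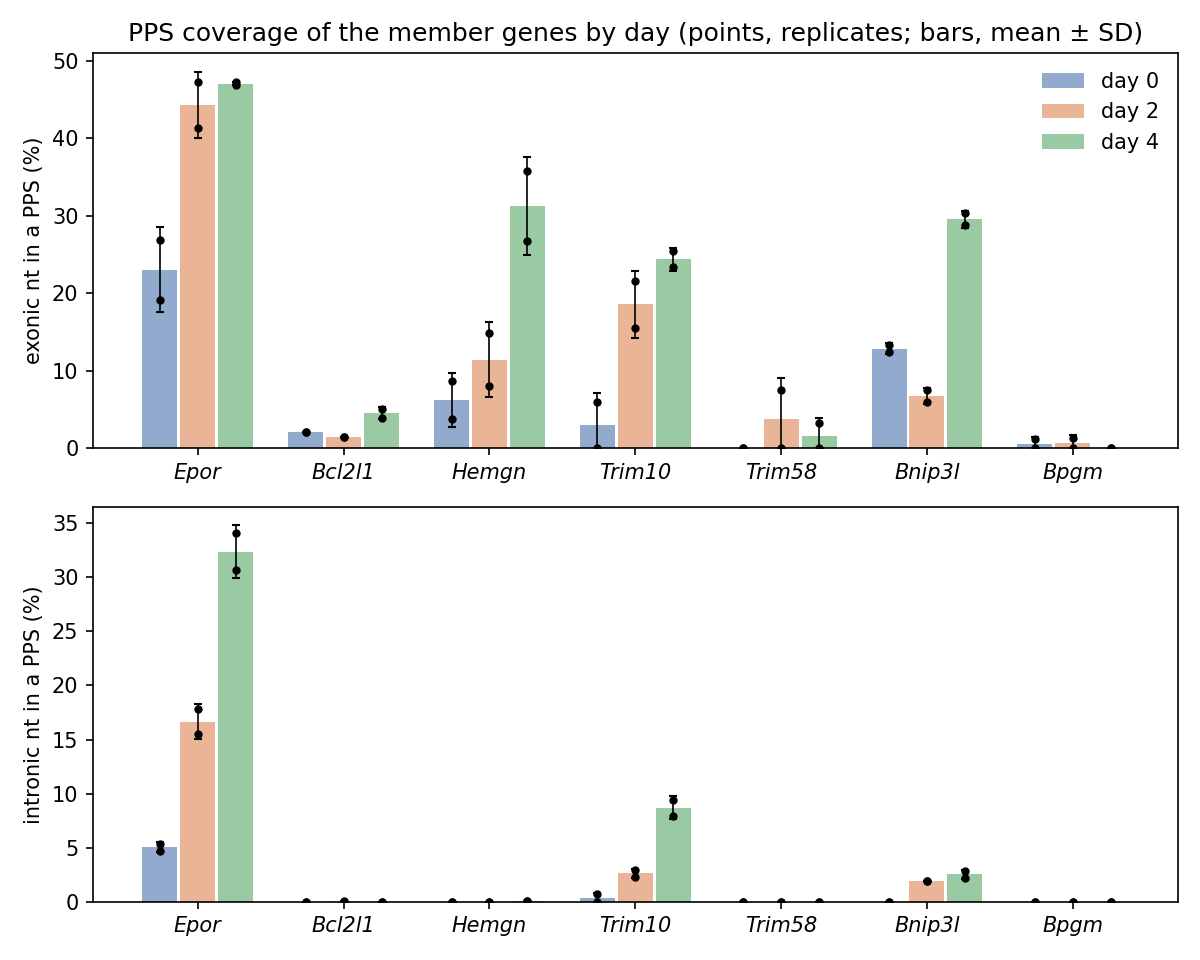
Percentage of exonic (upper panel) and intronic (lower panel) nucleotides in a PPS for the 7 genes at days 0, 2 and 4; points are the 2 replicates, bars their mean and error bars the SD (cut at 0). At day 4 both points of Epor, Bcl2l1, Hemgn, Trim10 and Bnip3l lie above both points of day 0 in the exons.

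The ssRNase call set of day 0 replicate 2 stood apart in strand: 66.9% of its PPSs lay on the plus strand, against 49.8% to 51.8% in 10 of the other sets, and the ssRNase set of day 4 replicate 2 was at 43.3%. Epor, Bcl2l1, Hemgn and Bnip3l are minus-strand genes. All 4 were called higher at day 4, against 36.1% of minus-strand genes, and of the 3 plus-strand members only Trim10 was, against 25.7% of plus-strand genes. With day 0 replicate 1 alone set against the mean of day 4, the change was 20.2 points in Epor, 2.43 in Bcl2l1, 22.5 in Hemgn and 17.2 in Bnip3l, beside 24.0, 2.43, 25.0 and 16.7 with both replicates of day 0. That comparison kept the ssRNase set of day 4 replicate 2. Without day 4 replicate 2, which sets 1 replicate against a pool of 2, the pooled change was 14.1 points in Epor and 1.88 in Bcl2l1. It was 27.0 points in Hemgn and 8.37 in Bnip3l. With all replicates the pooled changes were 20.1, 2.99, 29.2 and 15.0 points in the same order. The part of the strand imbalance in these values was not tested further. The erythroid label of the cells was checked on marker genes. Exonic coverage rose from day 0 to day 4 in 8 of 10 erythroid markers, for example from 26.0% to 76.8% in Hba-a1 (alpha globin) and from 10.4% to 78.9% in Hbb-bs (beta globin). The others, Gata1 and Klf1, were neither higher nor lower. All 6 myeloid and all 6 lymphoid markers, among them Csf1r, Elane and Cd3e, had no exonic PPS at any day. Of 5 megakaryocyte markers, Itga2b went from 37.9% to 44.2% and Pf4 from 31.2% to 11.5% with overlapping replicates, and Gp9, Gp1ba and Ppbp had none.

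Epor lies on chr9:21958897-21963506 (minus strand, ENSMUSG00000006235.6), and its reference mRNA of 1761 nt has 8 exons. It was the most densely covered member at every day. Exonic coverage was 26.9% and 19.2% in the replicates of day 0, 47.3% and 41.3% at day 2, and 47.2% and 46.9% at day 4. Day 0 stood below both later days without overlap, and days 2 and 4 overlapped. The mean change was 21.2 points from day 0 to day 2 (range over the 4 pairs of replicates, 14.4 to 28.1) and 24.0 points from day 0 to day 4 (20.01 to 28.1). Pooled over replicates, 33.1% of exonic nt were covered at day 0, more than in 97.0% of genes, and 53.1% at day 4, more than in 99.4%.

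The introns of Epor filled further from day 2 to day 4, when its exons did not. Intronic coverage was 4.73% and 5.38% at day 0, 17.8% and 15.5% at day 2, and 34.1% and 30.6% at day 4, so that the 3 days were all apart. From day 2 to day 4 the mean rise was 15.7 points in introns (12.8 to 18.6) and 2.79 points in exons (-0.35 to 5.93). Exons here are the union over transcripts, and some of their bases are intronic in the reference mRNA. With exons of the reference transcript only, the pooled exonic change from day 2 to day 4 was -6.36 points in place of -0.90. From day 0 to day 4 it was 14.3 points in place of 20.1. Over all genes with an intronic PPS, 26.9% rose from day 0 to day 4 in both replicates. Of the 5 members with an intronic PPS, Epor, Trim10, Hemgn and Bnip3l did so, and in Hemgn the day 4 value was 0.106% at most.

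Joined across days, the PPSs of Epor formed 23 regions, of which 6 were found on all 3 days and 14 at days 2 or 4 but not at day 0. Over all protein-coding genes, 14.2% of 202825 regions were found on all 3 days and 49.9% at days 2 or 4 but not at day 0. Regions leave out PPSs of ribosome size, and with all lengths kept the counts in Epor were 9 and 12 of 24. In 3 of the persistent regions each day had calls from replicates 1 and 2. The first spanned chr9:21959367-21959707, coding sequence at mRNA positions 988 to 1291 and the intron beside it, with top scores of 26.6, 40.1 and 27.6 at days 0, 2 and 4. The score is the number deposited with each PPS, 5.4 or more. The sources used here do not define its scale, and its median was 6.21 in PPSs of 1 call and 15.0 in those joined from 2. The second, chr9:21961414-21961611, covered coding sequence from codon 142 to 194 and intronic bases at both ends, with scores of 24.6, 16.7 and 45.5. The third, chr9:21960931-21961023, lay within an intron and scored 22.4, 13.4 and 35.3. The highest score of the gene, 48.4 at day 4, was in another intronic region, chr9:21961930-21962061, where days 0 and 2 had 5.86 and 6.11. That site joined 5 calls at day 4. The exonic region and both intronic ones are printed on the transcript strand as the sites that persisted or grew most in score, with capitals for the bases covered on all 3 days.
Epor exon, 198 nt: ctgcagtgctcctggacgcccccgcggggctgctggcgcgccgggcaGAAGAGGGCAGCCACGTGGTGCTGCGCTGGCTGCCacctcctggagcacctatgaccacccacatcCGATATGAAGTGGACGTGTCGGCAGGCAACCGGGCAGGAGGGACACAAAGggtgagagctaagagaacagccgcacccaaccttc
Epor intron, 93 nt: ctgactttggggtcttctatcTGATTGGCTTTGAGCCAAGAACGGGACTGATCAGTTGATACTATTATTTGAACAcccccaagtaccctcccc
Epor intron, 132 nt: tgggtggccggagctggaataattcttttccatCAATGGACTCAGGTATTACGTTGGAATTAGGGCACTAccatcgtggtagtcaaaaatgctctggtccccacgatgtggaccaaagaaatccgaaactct
The exonic stretch was richer in G and C (66.2%) than the intronic ones (47.3% and 47.0%).

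Bcl2l1 lies on chr2:152780668-152831728 (minus strand, ENSMUSG00000007659.18). It was sparsely covered, with 1, 2 and 3 PPSs longer than ribosome size at days 0, 2 and 4. Exonic coverage was 2.09% in both replicates of day 0, 1.44% in both of day 2, and 3.97% and 5.08% at day 4. The values are equal within a day because the same joined PPS served both replicates. The fall to day 2 rests on the outline of 1 joined site, of 96 nt at day 0 and 66 nt at day 2, and with all lengths kept the pooled change turned from -0.65 to 0.15 points. Day 4 was above day 0 by 2.43 points on average (1.88 to 2.99), and the pooled change was larger than in 73.7% of genes.
The single region that persisted, chr2:152829847-152829951, is coding sequence from codon 14 to 48 of the Bcl-xL reading frame. It had calls of both replicates on all 3 days, with scores of 15.2, 27.6 and 19.8. It is shown because the only exonic PPSs longer than ribosome size before day 4 lay in it, with the 59 bases covered on every day in capitals.
Bcl2l1, 105 nt: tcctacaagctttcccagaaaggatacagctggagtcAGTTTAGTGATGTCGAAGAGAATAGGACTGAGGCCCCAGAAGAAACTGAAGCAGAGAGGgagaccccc
At day 4 a PPS of 93 nt appeared just upstream, at mRNA positions 288 to 380 in the 5′ UTR, with a score of 19.3, and another of 51 nt further into the coding sequence. No PPS was found in the 3′ UTR of 1473 nt on any day.

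Hemgn lies on chr4:46393989-46413506 (minus strand, ENSMUSG00000028332.13). Exonic coverage was 8.72% and 3.82% at day 0, 14.9% and 8.005% at day 2, and 35.7% and 26.8% at day 4. Days 0 and 2 overlapped, and day 4 lay above both. The mean rise from day 0 to day 4 was 25.0 points (18.1 to 31.9), and the pooled rise of 29.2 points was larger than in 99.3% of genes, the highest rank among the 7.
The rise was in dsRNase calls. These covered 5.97% and 0% of exonic nt at day 0, 14.9% and 5.81% at day 2, and 26.2% and 23.2% at day 4. The ssRNase calls covered 2.75% and 3.82% at day 0 and 9.52% and 3.62% at day 4, with overlapping replicates. Of 12 PPSs at day 4, 8 had dsRNase calls alone, 3 ssRNase calls alone and 1 both. Over all genes with an exonic PPS, mean coverage from dsRNase calls was 3.66% and 4.18% at day 0. It was 3.05% and 2.03% at day 2 and 4.96% and 3.95% at day 4.
The PPS with the highest score, 48.6, lay at chr4:46395952-46396086 on day 4. With a day 0 PPS (score 15.0) it formed the region chr4:46395938-46396086 in the coding sequence, which had no PPS at day 2. Its neighbour chr4:46396102-46396277 scored 12.7 at day 2 from 2 calls and 34.8 at day 4 from 3 calls. The first of these regions is printed as the most strongly scored site of the gene, with capitals for bases covered on both days 0 and 4.
Hemgn, 149 nt: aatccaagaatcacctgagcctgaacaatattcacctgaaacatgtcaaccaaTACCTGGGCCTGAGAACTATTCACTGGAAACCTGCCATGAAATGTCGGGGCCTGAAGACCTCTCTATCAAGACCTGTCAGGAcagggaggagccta
At day 4 the 3 PPSs of ssRNase calls alone lay closer to the start of the mRNA than any of the 8 of dsRNase calls alone. Those 8 lay from mRNA position 757 onward, in the coding sequence and the 3′ UTR. A region over the start codon, mRNA positions 194 to 284, was present on all 3 days with scores of 6.82, 7.29 and 12.2.

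Trim10 lies on chr17:36869574-36877833 (plus strand, ENSMUSG00000073400.6). Exonic coverage was 5.97% and 0% at day 0, 21.6% and 15.5% at day 2, and 25.4% and 23.3% at day 4, so the days did not overlap. The mean rise was 15.6 points to day 2 (9.53 to 21.6) and 21.4 points to day 4 (17.4 to 25.4). The pooled change to day 2, 18.8 points, was larger than in 99.5% of genes. With day 4 replicate 1 left out, the pooled change from day 2 to day 4 turned from 5.26 to -1.43 points.
Intronic coverage rose too, from 0.698% and 0% at day 0 to 2.91% and 2.34% at day 2 and 9.46% and 7.98% at day 4. In contrast to Hemgn, ssRNase calls led. They covered 1.96% and 0% of exonic nt at day 0 and 19.2% and 22.2% at day 4, above both dsRNase values of that day (16.6% and 5.21%).
Of the 17 regions of Trim10, 13 were found at days 2 or 4 but not at day 0 (49.9% of regions over all genes). The single region present on all 3 days, chr17:36877017-36877128, holds codons 375 to 412 in the last coding exon, with scores of 6.82, 20.4 and 19.7. Those scores were of 1, 2 and 3 joined calls, and the score tends to be higher where more calls are joined. The region is printed as the site that was there before induction and on both later days, with capitals for the 18 bases covered on every day.
Trim10, 112 nt: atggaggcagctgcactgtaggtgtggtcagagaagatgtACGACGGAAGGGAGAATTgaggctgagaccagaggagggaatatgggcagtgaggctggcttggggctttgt
The highest score of Trim10 at day 2 was 30.6, in the 5′ UTR, and at day 4 it was 34.9, in the 3′ UTR. An intronic region, chr17:36874495-36874646, scored 5.4 at day 0 from 1 call and 33.3 at day 4 from 4 joined calls.

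Trim58, on chr11:58640465-58652404 (plus strand, ENSMUSG00000037124.6), had no PPS at day 0. At day 2 it had 2 PPSs in the coding sequence and 1 of ribosome size, and at day 4 it had 1. Exonic coverage was 0% and 7.53% at day 2 and 0% and 3.28% at day 4, with every call longer than ribosome size in replicate 2. The sites of the days did not overlap each other, and the highest score was 9.98.

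Bnip3l lies on chr14:66985239-67008877 (minus strand, ENSMUSG00000022051.15), and 2488 of the 3238 nt of its mRNA are 3′ UTR. Coverage fell and then rose. Exonic coverage was 12.4% and 13.3% at day 0, 7.49% and 6.01% at day 2, and 28.8% and 30.3% at day 4, with no overlap between any 2 days. The mean change was -6.12 points from day 0 to day 2 (-7.33 to -4.90) and 16.7 points from day 0 to day 4 (15.4 to 17.9). The dip was lost among PPSs with a score of 10 or more, where the pooled change to day 2 was 0.41 points in place of -10.2.
The dip and the rise were in the 3′ UTR, where coverage was 16.7% and 14.1% at day 0, 5.63% and 5.27% at day 2, and 33.0% and 38.5% at day 4. Over 6710 genes with a PPS in the 3′ UTR, mean coverage there was 11.2%, 8.14% and 12.5% at days 0, 2 and 4. Day 2 was thus the lowest there too. Of the 34 regions of Bnip3l, 7 had PPSs outside ribosome size at days 0 and 4 but not at day 2, against 8.51% of regions over all genes. Each of the 7 lay in the 3′ UTR. Bnip3l was dsRNase-led on each day: at day 4 dsRNase calls covered 28.8% and 22.6% and ssRNase calls 3.78% and 17.4%. The dsRNase call sets of the series held 33777 and 40191 PPSs at day 0 and 40730 and 20569 at day 2. At day 4 they held 66586 and 50594. The part of call set size in the path of Bnip3l was not tested. The longest and highest-scoring PPS of the gene, 253 nt at chr14:66986310-66986562 with a score of 42.5 at day 4, was of dsRNase calls only, and its region scored 15.2 at day 0 and 8.2 at day 2.
Introns held no PPS longer than ribosome size at day 0, 8 at day 2 and 12 at day 4, and intronic coverage went from 0% to 1.90% and 1.93% and then 2.86% and 2.22%.
In the coding sequence the region chr14:66993879-66993940, codons 97 to 118, was present on all 3 days with scores of 9.58, 10.0 and 28.7, from 1, 1 and 4 calls. It is printed as the persistent coding site of this gene, with capitals for bases covered on every day.
Bnip3l, 62 nt: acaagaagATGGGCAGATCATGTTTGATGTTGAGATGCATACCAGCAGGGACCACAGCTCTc
Stretches of this mRNA have near-identical copies on chromosomes 12 (99.3% over mRNA positions 39 to 1326), 1 (97.6%, 54 to 1119) and 16 (93.9%, 1797 to 2331), and reads with several map positions had been kept, so values there are uncertain. The printed coding site (mRNA positions 384 to 445) lay in the stretches copied on chromosomes 12 and 1. The highest-scoring PPS (1915 to 2167) lay in that copied on chromosome 16. The region over the 5′ UTR (29 to 179) lay mostly in the stretch copied on chromosome 12. The copies themselves held 0 PPSs in the sense of the mRNA on any day. With all copied positions left out, 2036 exonic nt remained and the order of the days was the same, with replicates at 10.0% and 6.68% on day 0, 4.37% and 4.37% on day 2, and 19.7% and 23.6% on day 4. No other member had a copy of at least 100 nt at 90% identity.

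Bpgm, on chr6:34476207-34505613 (plus strand, ENSMUSG00000038871.5), was nearly bare. It had 1 PPS of 45 nt at day 0 (dsRNase, replicate 1, score 5.4), 1 of 50 nt at day 2 (ssRNase, replicate 2, score 14.2) and, at day 4, 2 PPSs of ribosome size only, with scores up to 8.14. All were in the coding sequence. Exonic coverage was 1.25% and 0% at day 0, 0% and 1.39% at day 2, and 0% in both replicates at day 4.

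**Figure D2:**
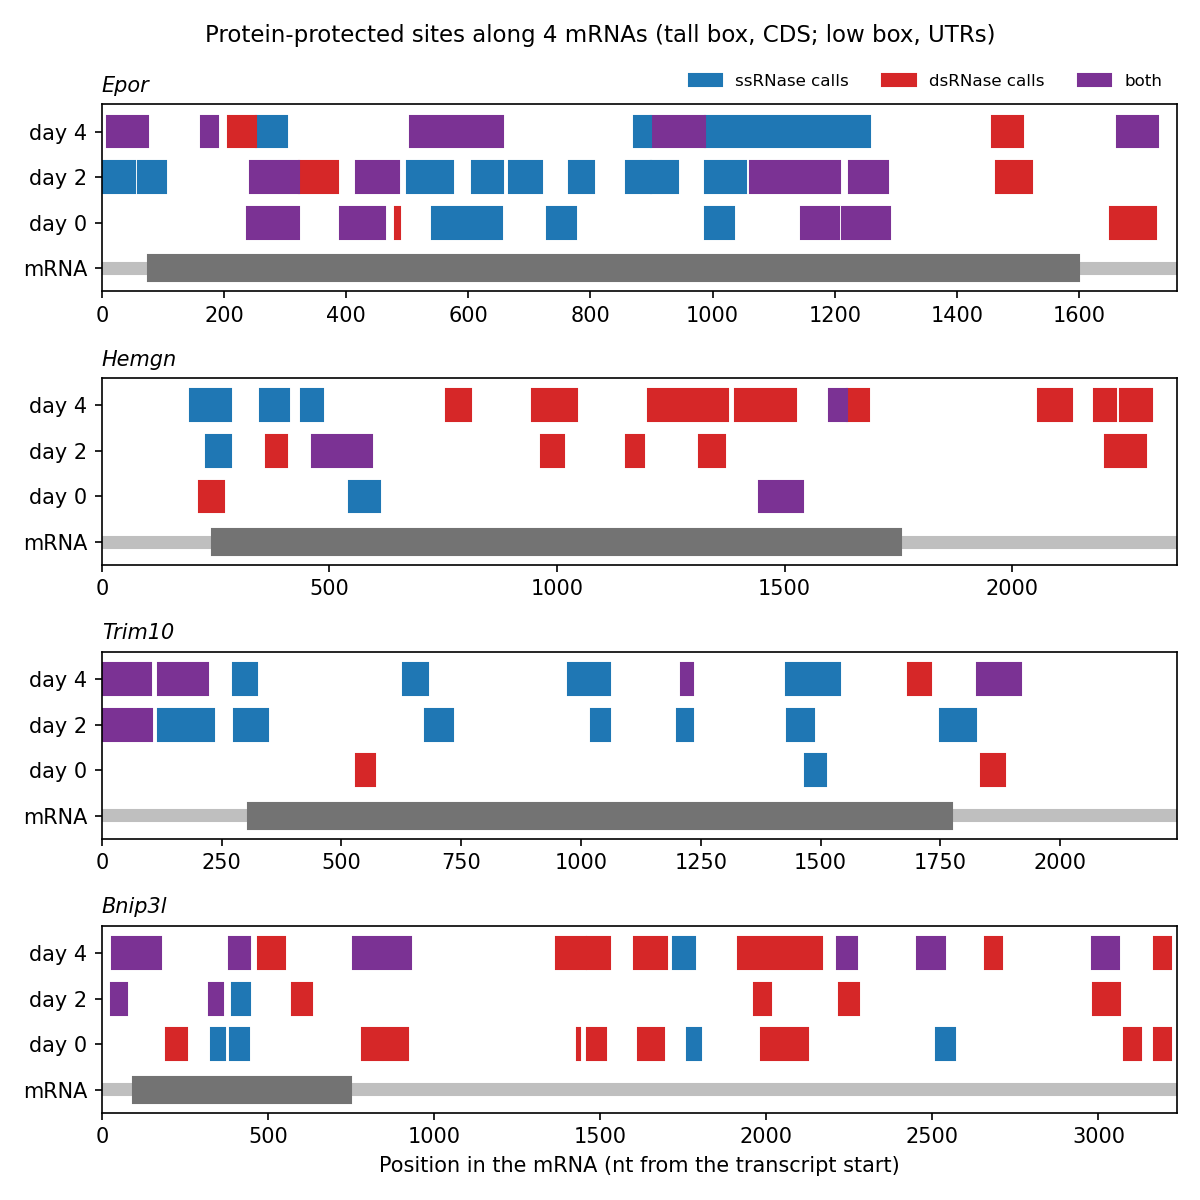
PPSs outside ribosome size along the reference mRNAs of Epor, Hemgn, Trim10 and Bnip3l, in nt from the transcript start, by day; colours give the RNase of the calls, the tall grey box is the CDS and the low box the UTRs (intronic PPSs are not drawn). The start of the Epor, Trim10 and Bnip3l mRNAs holds PPSs at days 2 and 4 and none at day 0, and the Bnip3l 3′ UTR is fullest at day 4.

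Coverage of the 5′ UTR was 0% in both replicates of day 0 in Epor, Bcl2l1, Trim10 and Bnip3l. At day 2 it was 94.7% and 73.3% in Epor, 72.5% and 82.0% in Trim10, 50.5% in both replicates of Bnip3l, and still 0% in Bcl2l1. At day 4 it was 89.3% in both replicates of Epor, 68.2% and 44.9% in Trim10, 67.7% in both of Bnip3l and 23.7% in both of Bcl2l1. In Epor and Bnip3l the equal day 4 values came from a joined site, with an ssRNase call in 1 replicate and a dsRNase call in the other. Within either RNase, 1 replicate of day 4 was at 0% in these genes, so days 0 and 4 overlapped. The same held for Bnip3l at day 2. Hemgn had 11.9% and 0% at day 0, and 20.6% in both replicates at day 4.
Thus 5 of the 7 members were higher at day 4 in the 5′ UTR. Trim58, whose 5′ UTR is 3 nt long, and Bpgm, with 276 nt, had no PPS there on any day. Of 4352 genes with a PPS in the 5′ UTR, 13.9% were higher at day 4, and their mean coverage there was 20.8%, 21.1% and 15.3% at days 0, 2 and 4. Since 4 of the 5 had a PPS there only after induction, they could differ in this direction only. The 5′ UTRs of the 5 genes run from 75 nt in Epor to 393 nt in Bcl2l1, so that 1 site can fill much of one. The PPSs in that of Bnip3l lay mostly in the stretch with a near-identical copy on chromosome 12, where values are uncertain.
In the coding sequence, Trim10, Hemgn and Epor were higher at day 4, against 27.8% of genes. In the 3′ UTR, Trim10, Hemgn and Bnip3l were higher, against 29.1% of genes. The 3′ UTR of Epor was covered in replicate 2 only, at 46.3% at day 0 and 41.4% at day 4.

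**Figure D3:**
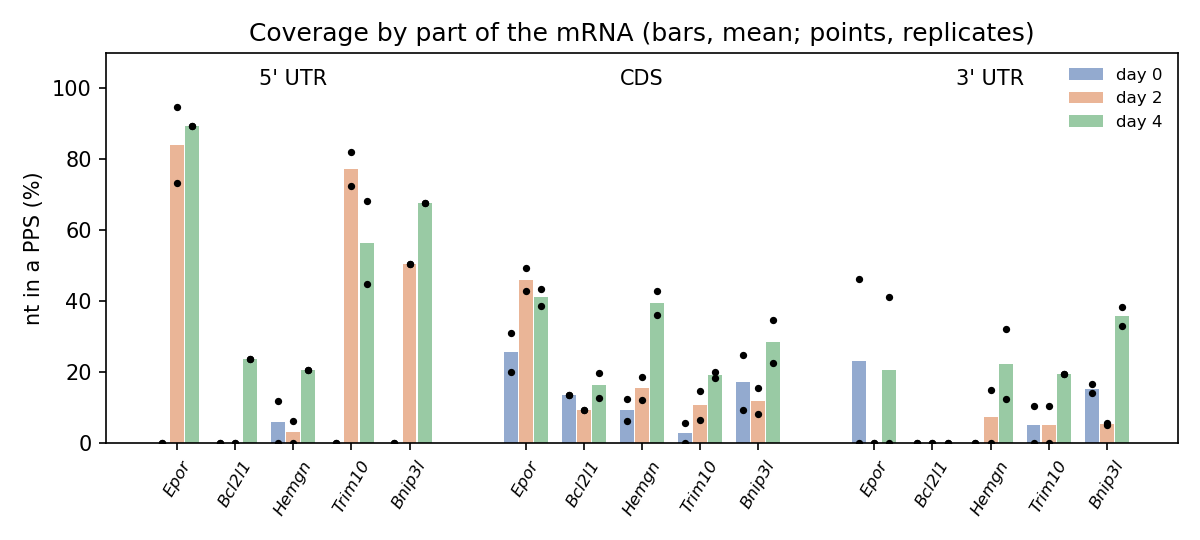
Percentage of nucleotides in a PPS in the 5′ UTR, CDS and 3′ UTR of 5 genes at days 0, 2 and 4; bars are means and points the 2 replicates. In the 5′ UTR the day 0 points of Epor, Bcl2l1, Trim10 and Bnip3l are at 0 and both day 4 points are above them.

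The path from day 0 to day 4 differed in its timing. By day 2, exonic coverage of Trim10 and Epor was above day 0, against 22.3% of genes, and that of Bcl2l1 and Bnip3l below it, against 30.4% of genes, though both falls turned under an alternative (all lengths kept for Bcl2l1, a score of 10 or more for Bnip3l). From day 2 to day 4, Trim10, Bcl2l1, Hemgn and Bnip3l were higher (33.8% of genes) and no member was lower (19.3% of genes). Ordered by mean exonic coverage at day 4, Epor (47.1%) came first, then Hemgn (31.3%), Bnip3l (29.6%), Trim10 (24.4%), Bcl2l1 (4.52%), Trim58 (1.64%) and Bpgm (0%). Among neighbours in that order, the replicates of Hemgn and Bnip3l overlapped, as did those of Trim58 and Bpgm, and the others did not.

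The RNases split the 4 well covered genes into pairs. At day 4, ssRNase calls covered more than dsRNase calls in both replicates in Trim10, Bcl2l1 and Epor (15.7% of genes), and less in Hemgn and Bnip3l (23.9% of genes). At day 2 the first held for Trim10 and Epor (32% of genes) and the second for Hemgn and Bnip3l (6.39% of genes). At day 0 the first held for Epor and the second for Bnip3l, and each held for 19.6% of genes. With ssRNase calls alone, Trim10, Bcl2l1, Epor and Bnip3l were higher at day 4 than at day 0 (22.2% of genes), and with dsRNase calls alone Trim10, Hemgn, Epor and Bnip3l were (27.2% of genes). Counted by site, 67.7% of 31 exonic member PPSs at day 0, 50.0% of 42 at day 2 and 74.5% of 51 at day 4 had a dsRNase call. Over all genes the shares were 59.7%, 46.8% and 68.3%, with the same low at day 2.

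**Figure D4:**
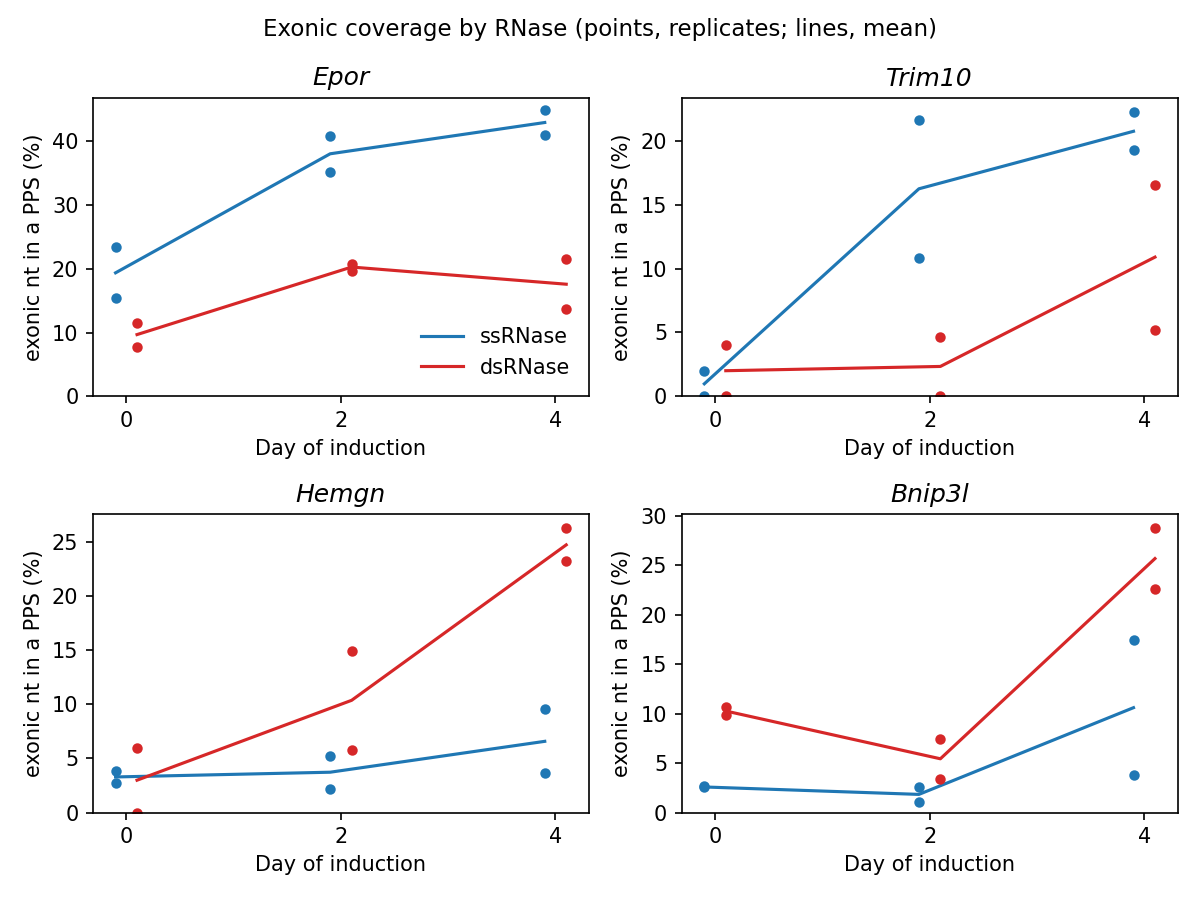
Exonic coverage from ssRNase calls (blue) and dsRNase calls (red) in Epor, Trim10, Hemgn and Bnip3l at days 0, 2 and 4; points are the 2 replicates and lines join their means. The ssRNase points lie above the dsRNase points in Epor on each day and in Trim10 at days 2 and 4, and below them in Bnip3l on each day and in Hemgn at days 2 and 4.

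Over the 12 call sets, exonic coverage of Epor was most like that of Trim10 among the well covered members (Pearson r = 0.77) and that of Hemgn most like that of Bnip3l (r = 0.74), and r between Epor and Hemgn was -0.18. These are descriptions over 12 sets, of which those of the same day share the outlines of joined sites. Among 6915 other protein-coding genes, the most alike were Lrrc1 for Epor (r = 0.94), Hadh for Hemgn (r = 0.97), L3mbtl3 for Trim10 (r = 0.93) and Reep5 for Bnip3l (r = 0.97). Each is the best of many candidates, and coverage in them was above 0 in 5, 8, 5 and 6 of the 12 sets. Their pooled coverage at day 4 was 1.68%, 6.29%, 1.95% and 17.1%, so several lay near 0. Mast4 (r = 0.999) and Rabepk (r = 0.91) for Trim58 and Bpgm rest on 2 call sets above 0 in the member.

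Across all 7 genes, PPSs joined into 95 regions. Of these, 68.4% (65) were found at days 2 or 4 but not at day 0, against 49.9% of the regions of all protein-coding genes. Another 4 were found only at day 0 (19.5% over all genes) and 12 on all 3 days (14.2%). With all lengths kept, 74 of 113 were found at days 2 or 4 but not at day 0 and 19 on all 3 days. The share of member PPSs with calls of both replicates went from 23.5% of 34 at day 0 to 40.7% of 59 and 52.0% of 75. Over all PPSs outside ribosome size it was 30.8%, 30.8% and 35.8%. Exonic member PPSs were searched on the transcript strand for 4 sequence words. GTGTG was in 22 of 124 (17.7%), against 10.8% of other exonic PPSs of the same length and day, with 9 of the 22 in Epor and none in Bcl2l1 or Bpgm. The word TTTTTT was in 3 (1.76% of the others), TGTANATA, the form bound by Pumilio proteins, in 1 (0.80%), and TATTTAT, an AU-rich element, in 0 (0.45%). PPSs of different days overlap, so the 124 are not independent.

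The pathways around these genes were read from lists that were chosen with earlier results of these data known. Of 12 other genes of Epo receptor signalling, 10 had an exonic PPS. Among these 10, 5 were higher at day 4 (Jak2, Stat5b, Cish, Socs2 and Pim1) and 3 lower (Stat5a, Ptpn6 and Sh2b3). Cish, a feedback inhibitor induced by STAT5, rose from 5.17% to 31.5%, and the survival kinase gene Pim1 from 6.75% to 26.2%. Of 12 other BCL2 family genes, 11 had an exonic PPS, and 8 of these 11 were higher and 2 lower. Bcl2l11 (Bim, which promotes apoptosis) went from 0% to 17.9% and Bcl2l2 (which opposes it) from 8.85% to 25.3%.
Of 13 autophagy and mitophagy genes, 10 were higher and 1 lower. Foxo3, a transcription factor for autophagy genes, rose from 8.20% to 35.4%, and Fundc1, a mitophagy receptor, fell from 13.8% to 2.97%. Glycolysis, from which the Bpgm reaction branches, had 2 of 10 genes higher (Eno1 and Pkm) and 4 lower. Gpi1 fell from 40.8% to 12.3% and Pgam1 from 37.0% to 11.6%. Of 13 other TRIM genes, 12 had an exonic PPS. Of these 12, 3 were higher, among them Trim33 (13.4% to 19.6%) and Trim24 (5.49% to 11.2%), and 3 lower. All of these counts stand beside 30.8% higher and 25.4% lower among all genes with an exonic PPS.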

How the data were processed

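PPS lists of MEL cells at 3 days of DMSO treatment were analysed, 1 list per day. Per the labels and the methods of the study, reads were trimmed with cutadapt 1.2.1, mapped to mm10 with TopHat2 2.0.10 with several hits per read allowed, with duplicates collapsed, and PPSs were called by a Poisson test of footprint against structure-only libraries. Each deposited PPS carries a score, whose scale is not given in the sources used here. Read counts were not used here, so the read depth over each gene and site is unknown and no interval can be given.

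Calls were assigned to day, RNase and replicate by the name column. Coverage was computed with numpy 2.4.6 and pandas 2.3.3 on GENCODE M21 (mm10), after leaving out PPSs of 20 to 40 nt, and tested on simulated data. Exons were the union over transcripts; UTRs and CDS came from the transcript with the longest CDS. No PPS ended beyond a chromosome of GRCm38. A gene was called higher when both replicates of a day exceeded both of the other. Copies were sought with blastn 2.17.0. The members and lists were chosen with earlier results of these data known. Named genes were the members, in each list the 2 with the largest change from day 0 to day 4, and per member the most alike gene by coverage (at least 500 exonic nt and 3 PPSs at some day); other list genes and all sites beyond the best-scored and persistent ones were named after their values were seen. Alternatives covered site length, replicate support, RNase, score, list size, transcript, shared positions and leaving out each replicate. 1 listed gene was not analysed here, and the most alike gene of Bcl2l1 is not reported here.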

Additional observations from a re-analysis of the deposited data

Results flagged for a closer look

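Bnip3l held PPSs on the strand opposite to the gene, data that no comparison above uses: 1 before induction, 3 on day 2 and 4 on day 4. The other 6 genes held none. The site with calls of both RNases and both replicates at day 4, chr14:66987346-66987457 (score 27.4), had counterparts of replicate 2 ssRNase calls at day 0 (score 9.98) and day 2 (score 13.5) and lay across from the 3′ UTR. The others at days 2 and 4 lay across from the coding sequence or 3′ UTR and had calls of replicate 2 only. All of these sites lay across from mRNA positions 39 to 1326, the stretch with a near-identical copy on chromosome 12. Their values are uncertain for that reason, and PPSs on the copies were counted in the sense of the mRNA only. The origin of the opposite-strand sites was not tested.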

How the results depend on the processing

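No paired analysis was possible because the results come from no test and the replicate numbers only name the samples. The count of members higher at day 4 than at day 0 was 4 to 6 under every alternative run. The count higher at day 2 than at day 0, 2 genes, became 4 with all lengths kept and 1 with dsRNase calls only, and ran from 2 to 4 when a replicate was left out. The median change from day 0 to day 4 was 13.8 points with all lengths, 18.3 with PPSs of both replicates, 2.95 with ssRNase calls, 11.4 with dsRNase calls, 18.0 at a score of 10 or more, and 8.37 to 23.1 without a replicate. From day 0 to day 2 it was 7.53 points, but 0 with PPSs of both replicates, 1.39 with ssRNase calls, 0 with dsRNase calls, 1.39 at a score of 10 or more, and 0 to 7.53 without a replicate. From day 2 to day 4 it was 3.64 points, 6.37 with PPSs of both replicates, and -1.39 to 11.9 without a replicate, reversed without day 4 replicate 1. Leaving out a replicate sets 1 replicate against a pool of 2, which by construction shifts the pooled change. Bcl2l1 from day 0 to day 2 turned to 0.15 points with all lengths kept. Bnip3l from day 0 to day 2 turned to 0.41 points at a score of 10 or more, and Trim10 from day 2 to day 4 (5.26 points) ran from -1.43 to 14.5 points without a replicate, the lowest without day 4 replicate 1. The cause was not tested. Among PPSs of both replicates, 85.7% of those of the members had a dsRNase call at day 0 and 64.7% at day 2. Of 255 gene changes recomputed, 153 stayed within 1 SD of the main value and 99 moved further, beside 3 reversed. The alternatives without the copied stretches of Bnip3l, with day 0 replicate 1 alone against the mean of day 4, and with regions of all lengths were chosen after seeing the data. Regions found on all 3 days numbered 12, 11 when joined at 50% of the shorter PPS, and 19 with all lengths kept.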
